A study of Oryza sativa with 9 samples.

Results

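The genes described here are the neighbours of OsMADS58 on rice chromosome 5. They were taken as the identifiers LOC_Os05g09400 to LOC_Os05g13400 of the count table, without OsMADS58 itself (LOC_Os05g11414), that had at least 10 counts in at least 3 of the 9 samples. Of the 297 identifiers in this window, 113 met the rule, 62 of them with a lower and 51 with a higher number than OsMADS58, out of 56143 genes in the whole table. Of the other 184 identifiers, 142 had 0 counts in every sample. All 113 neighbour genes also passed the filter of the statistical test, as did 6 window genes under the count rule. At the edge of the rule, LOC_Os05g09540 was inside, with at least 11 counts in 3 samples, and LOC_Os05g12808 was outside, with at least 9 in 3 samples. The rule used no difference between groups. However, a gene with counts only in *osmads58* CRISPR, a mutant line with 2 samples, could not meet it.

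RNA was sequenced from young rice panicles of about 1 cm, in which stamens are forming. There were 3 wild-type samples, 4 samples of *osmads58* dSpm (1, 2, 4b and 5b) and 2 samples of *osmads58* CRISPR (1 and 2). The labels give both mutants the same genotype, osmads58-/-. In *osmads58* dSpm a transposon sits in the second intron of OsMADS58. The study describes that line as fertile and its allele as not null. In *osmads58* CRISPR a Cas9 edit in exon 2 shifts the reading frame. By the methods only some of the homozygotes were completely sterile, and the plants used were of this kind. The *osmads58* CRISPR samples came from independent transgenic lines, each a pool of panicles from several plants, collected after genotyping. The methods name the cultivar Nipponbare among the plants used and do not give the genetic background of each sample. The labels write 58Z for the samples named dSpm here and 58CRIS for the others, and the names were assigned by the number of samples in each group. Each mutant allele is inherited together with the chromosome around it. An effect of the allele and a difference in the flanking sequence between a line and the wild type cannot be told apart in these counts. The study also re-sequenced the genome of a CRISPR line, which was not analysed here.

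OsMADS58 encodes a C-class MADS-box transcription factor. Proteins of this class bind DNA as part of larger complexes and specify stamens and carpels in the flower. Transposons inserted in plant genes can alter the expression of adjacent genes, so the neighbours of a targeted locus are commonly examined alongside it. MSU identifiers are numbered in order along each chromosome, with gaps between the numbers. Distance is therefore given here in identifier units, which show order and not bases.

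Distances start from the identifier of OsMADS58 and not from a site within it. The Cas9-edited site of OsMADS58 was genotyped by the study with the following primer pair. It is printed 5′ to 3′ in lower case to show where the targeted gene was sampled.
OsMADS58 CRI-sen: gccatgatgtctccagcact
OsMADS58 CRI-anti: tgtcacaagaaaaggtagcaact
No names, positions, lengths or sequences were used for the neighbour genes, since the files do not pair their identifiers with any. Levels are given in CPM, counts scaled to the size of each library but not to gene length, so they compare samples and not genes.

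Counts per sample summed to between 65192657 and 83042245, with a median of 77715447. The labelled tissue was checked on genes of meiosis and photosynthesis. All 8 meiotic genes had counts in every sample, with a summed level of 562 to 581 CPM in the wild type, 420 to 835 CPM in *osmads58* dSpm and 408 to 478 CPM in *osmads58* CRISPR. Of 9 photosynthetic genes, 8 had counts in every sample, and their summed level was 97.5 to 106 CPM, 107 to 144 CPM and 125 to 152 CPM in the same order. The part of a different mix of cells in the results was not tested, and in whole panicles fewer cells of a type and less RNA per cell cannot be told apart. Wild type 1 and *osmads58* dSpm 1 stood apart from the other samples of their groups. Wild type 1 was the highest of all samples in 20 neighbour genes and the lowest in 21, and *osmads58* dSpm 1 was the highest in 30. The deviations of these 2 samples from their group means had a correlation of 0.31 across the 27251 genes tested, which are not independent replicates.

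The targeted gene itself was measured first. OsMADS58 had 8.38, 3.29 and 4.01 CPM in the wild type, 2.1, 0.719, 1.79 and 2.0 CPM in *osmads58* dSpm, and 0.270 and 0.471 CPM in *osmads58* CRISPR. The 3 groups did not overlap. The log2 fold change was −3.81 (SE 0.67, adjusted p = 0.0153) in *osmads58* CRISPR against the wild type and −1.66 (SE 0.47, adjusted p = 0.118) in *osmads58* dSpm. Here and below, unless DESeq2 is named, adjusted p-values come from the quasi-likelihood test in edgeR, adjusted by the Benjamini-Hochberg method over all 27251 genes. A gene was called at an adjusted p under 0.05 with an absolute log2 fold change over 1, the thresholds of the study. With DESeq2, the tool of the study, OsMADS58 was also called in *osmads58* dSpm (log2 fold change −1.70, adjusted p = 0.0101). The call in *osmads58* CRISPR was lost when either of its samples was left out, with adjusted p = 0.152 without sample 1 and 0.148 without sample 2.

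Most neighbour genes did not pass the test in either line. In *osmads58* dSpm against the wild type, 4 of 113 neighbour genes (3.54%) were called, where 1.45% of all genes tested and 1.81% of the 1988 other chromosome 5 genes were called. In *osmads58* CRISPR against the wild type, 6 of 113 (5.31%) were called, where 5.55% of all genes and 6.24% of the other chromosome 5 genes were. Between the lines, 6 of 113 (5.31%) were called, beside 5.36% and 4.93%. The shares in *osmads58* CRISPR and between the lines lay near their background. In *osmads58* dSpm the share was above its background but rested on 4 genes. The counts are therefore not a result about the neighbour genes. Both lines were compared with the same 3 wild-type samples.

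By direction, *osmads58* dSpm had 2 neighbour genes called higher and 2 lower, against a background of 1.18% higher and 0.268% lower over all genes. In *osmads58* CRISPR, 1 was called higher and 5 lower, against 2.04% and 3.51%. Between the lines, *osmads58* CRISPR was higher in 2 and lower in 4, against 1.44% and 3.93%. The wider counts against the wild type stayed close to the rest of the genome, while those between the lines were somewhat higher. An unadjusted p under 0.05 was reached by 20 neighbour genes in *osmads58* dSpm (17.7%, against 16.6% of all genes), by 29 in *osmads58* CRISPR (25.7%, against 25.7%) and by 35 between the lines (31.0%, against 23.7%). The groups did not overlap in 19 neighbour genes for *osmads58* dSpm (16.8%, against 15.1%), in 63 for *osmads58* CRISPR (55.8%, against 54.6%) and in 51 between the lines (45.1%, against 40.4%).

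**Figure D1:**
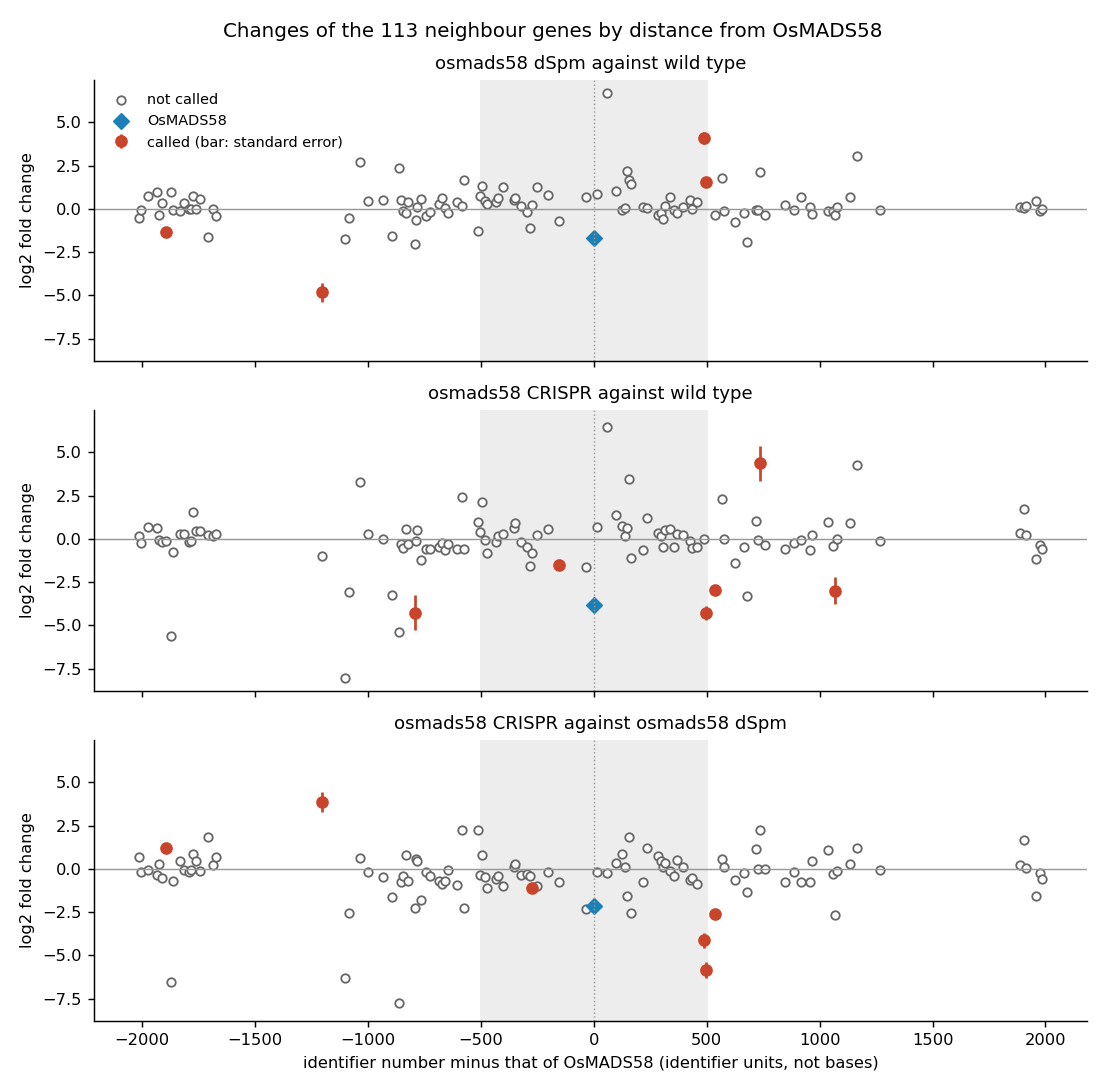
Log2 fold change (y axis) of each of the 113 neighbour genes against its distance from OsMADS58 in identifier units (x axis), in the 3 comparisons. Filled red points were called, with the standard error as a bar, open points were not, the blue diamond is OsMADS58, and the shaded band holds the 39 genes within 500 identifier units. Called genes number 4, 6 and 6 from top to bottom and lie on both sides. The fitted values of genes with 0 counts in a whole group, such as the open points above 6 next to OsMADS58, depend on the prior count.

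Of the called genes, 3 lay close together on the side of higher identifiers. LOC_Os05g11900, LOC_Os05g11910 and LOC_Os05g11950 follow each other among the neighbour genes, 486, 496 and 536 identifier units from OsMADS58. The 3 identifiers between the second and the third of them had 0 counts in all 9 samples. Each of the 3 genes showed a different pattern over the groups.

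LOC_Os05g11900 had 3.21, 1.65 and 1.54 CPM in the wild type, 49.2, 42.1, 27.9 and 27.5 CPM in *osmads58* dSpm, and 2.09 and 2.11 CPM in *osmads58* CRISPR. Every *osmads58* dSpm sample was above all other samples, and the *osmads58* CRISPR samples lay within the wild-type range. The gene rose 17.2-fold in *osmads58* dSpm against the wild type (log2 fold change 4.10, SE 0.36, adjusted p = 0.00134), and *osmads58* CRISPR was 17.5-fold below *osmads58* dSpm (log2 fold change −4.13, SE 0.44, adjusted p = 0.00183). Against the wild type, *osmads58* CRISPR had a log2 fold change of −0.02 (SE 0.38, adjusted p = 0.984), and its sign depended on the settings. This increase and the difference between the lines were called under all 20 alternative settings tried.

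LOC_Os05g11910, the next identifier, had 158, 72.4 and 75.6 CPM in the wild type, 248, 403, 256 and 296 CPM in *osmads58* dSpm, and 4.84 and 5.63 CPM in *osmads58* CRISPR. The 3 groups did not overlap, with *osmads58* dSpm at the top and *osmads58* CRISPR at the bottom. The gene fell 19.5-fold in *osmads58* CRISPR against the wild type (log2 fold change −4.28, SE 0.42, adjusted p = 0.0023) and rose 2.95-fold in *osmads58* dSpm (log2 fold change 1.56, SE 0.30, adjusted p = 0.0386). It was the only neighbour gene called in both lines, and the directions were opposite. The difference between the lines was 57.4-fold (log2 fold change −5.84, SE 0.46, adjusted p = 0.000738). The calls in *osmads58* CRISPR and between the lines were made under all 20 alternatives, but the increase in *osmads58* dSpm under only 11 of them. Apart from the replicate block, it was lost without wild type 2 (adjusted p = 0.162), wild type 3 (0.164), *osmads58* dSpm 4b (0.0741), *osmads58* dSpm 5b (0.0861), *osmads58* CRISPR 1 (0.0695) or *osmads58* CRISPR 2 (0.0693), each left out alone, and with only *osmads58* dSpm 1 and 2 (0.122) or only the 2 groups compared (0.0699).

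LOC_Os05g11950 had 73.7, 52.0 and 48.7 CPM in the wild type, 39.5, 52.4, 37.8 and 49.0 CPM in *osmads58* dSpm, and 6.78 and 8.11 CPM in *osmads58* CRISPR. Both *osmads58* CRISPR samples were far below the other 7, and the other groups overlapped. The gene fell 7.80-fold in *osmads58* CRISPR against the wild type (log2 fold change −2.96, SE 0.26, adjusted p = 0.0014) and was 6.0-fold lower than in *osmads58* dSpm (log2 fold change −2.58, SE 0.25, adjusted p = 0.00139). In *osmads58* dSpm against the wild type its log2 fold change was −0.38 (SE 0.19, adjusted p = 0.364). Both calls were made under all 20 alternatives. Whether these 3 genes have near-identical copies or overlap other genes was not checked here, and whether the counting used strand is not given in the sources used here.

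**Figure D2:**
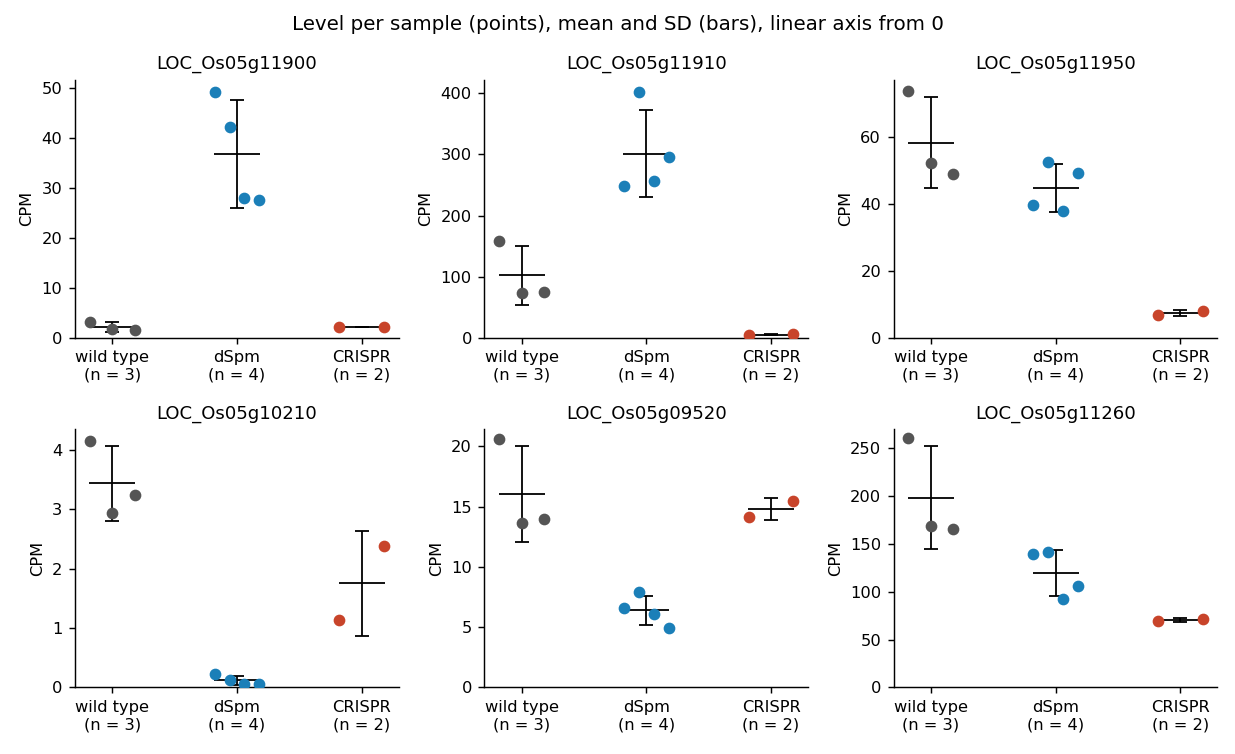
Level in CPM (y axis, linear from 0, a scale of its own in each panel) of 6 neighbour genes in each sample, by group (x axis). Points are samples, the horizontal bar is the group mean and the error bar 1 SD. LOC_Os05g11900 is high in the 4 *osmads58* dSpm samples (27.5 to 49.2 CPM), and LOC_Os05g11910 and LOC_Os05g11950 are low in both *osmads58* CRISPR samples (4.84 to 8.11 CPM).

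The other 2 genes called in *osmads58* dSpm were both lower there, and both lay on the side of lower identifiers, far from OsMADS58. LOC_Os05g10210, 1204 units away, had 4.14, 2.93 and 3.24 CPM in the wild type, 0.228, 0.122, 0.0635 and 0.0630 CPM in *osmads58* dSpm, and 1.13 and 2.38 CPM in *osmads58* CRISPR. The 3 groups did not overlap, with *osmads58* CRISPR in between. It fell 28.5-fold in *osmads58* dSpm (log2 fold change −4.83, SE 0.56, adjusted p = 0.00479) and was 14.6-fold higher in *osmads58* CRISPR than in *osmads58* dSpm (log2 fold change 3.87, SE 0.57, adjusted p = 0.0061). For *osmads58* CRISPR the log2 fold change was −0.97 (SE 0.60, adjusted p = 0.347). Each of the 2 calls was made under 19 of 20 alternatives. The decrease was lost only under the replicate block, and the difference between the lines only without *osmads58* CRISPR 2 (adjusted p = 0.0933).

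LOC_Os05g09520, 1894 units away, had 20.6, 13.6 and 13.9 CPM in the wild type, 6.60, 7.92, 6.07 and 4.95 CPM in *osmads58* dSpm, and 14.2 and 15.5 CPM in *osmads58* CRISPR. All 4 *osmads58* dSpm samples were below the other 5, and the *osmads58* CRISPR samples lay within the wild-type range. It fell 2.52-fold in *osmads58* dSpm (log2 fold change −1.33, SE 0.23, adjusted p = 0.0251) and was 2.32-fold higher in *osmads58* CRISPR than in *osmads58* dSpm (log2 fold change 1.21, SE 0.25, adjusted p = 0.0221). The decrease was called under 13 of 20 alternatives. Apart from the replicate block, it was lost without wild type 1 (adjusted p = 0.0668), wild type 2 (0.0763), wild type 3 (0.0803), *osmads58* dSpm 4b (0.0712) or *osmads58* dSpm 5b (0.0607), and with only *osmads58* dSpm 1 and 2 (0.12). The difference between the lines was called under 17 of 20 alternatives and, apart from the replicate block, was lost without *osmads58* CRISPR 1 (0.133) or *osmads58* CRISPR 2 (0.194).

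In *osmads58* CRISPR, 4 further genes were called against the wild type. On the side of lower identifiers, LOC_Os05g11260 (154 units away) had 260, 169 and 166 CPM in the wild type, 139, 141, 92.7 and 106 CPM in *osmads58* dSpm, and 69.3 and 71.8 CPM in *osmads58* CRISPR. The 3 groups did not overlap. It fell 2.81-fold in *osmads58* CRISPR (log2 fold change −1.49, SE 0.27, adjusted p = 0.0161), while the log2 fold change in *osmads58* dSpm was −0.73 (SE 0.21, adjusted p = 0.128). The call was lost without *osmads58* CRISPR 1 (adjusted p = 0.146) or 2 (0.174).

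LOC_Os05g10620 (794 units away, also with a lower identifier) had 17.7, 17.8 and 16.3 CPM in the wild type, 2.15, 11.6, 1.13 and 2.14 CPM in *osmads58* dSpm, and 1.23 and 0.561 CPM in *osmads58* CRISPR. All mutant samples were below the wild type, and *osmads58* dSpm 2 stood well above the other 3 of its group. It fell 19.4-fold in *osmads58* CRISPR (log2 fold change −4.28, SE 1.02, adjusted p = 0.0377), and the log2 fold change in *osmads58* dSpm was −2.03 (SE 0.70, adjusted p = 0.191). Without *osmads58* dSpm 2 the latter was −3.28 and called (adjusted p = 0.00411). The call in *osmads58* CRISPR was made under 14 of 20 alternatives. It was not made with DESeq2, which gave this gene no adjusted p-value, at a log2 fold change of −4.30. It was also lost without wild type 1, 2 or 3 (adjusted p = 0.0772, 0.0835 and 0.0755). Without *osmads58* CRISPR 1 or 2 it was lost as well, at log2 fold changes of −4.93 and −3.80.

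On the side of higher identifiers, LOC_Os05g12150 (736 units away) was the only neighbour gene called higher in *osmads58* CRISPR. It had 0.110, 0.269 and 0.459 CPM in the wild type, 0.121, 2.34, 1.75 and 0.768 CPM in *osmads58* dSpm, and 4.48 and 7.22 CPM in *osmads58* CRISPR. Both *osmads58* CRISPR samples were above all others, and the other groups overlapped. It rose 20.8-fold (log2 fold change 4.38, SE 1.01, adjusted p = 0.0349). In *osmads58* dSpm the log2 fold change was 2.15 (SE 0.87, adjusted p = 0.257). The call was lost without wild type 1 (adjusted p = 0.0952), wild type 2 (0.103), wild type 3 (0.0706), *osmads58* CRISPR 1 (0.146) or *osmads58* CRISPR 2 (0.224).

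LOC_Os05g12481 (1067 units away) varied within groups. Its level was 74.3, 22.3 and 18.4 CPM in the wild type, 60.3, 24.6, 18.9 and 17.5 CPM in *osmads58* dSpm, and 6.01 and 3.55 CPM in *osmads58* CRISPR. Wild type 1 and *osmads58* dSpm 1 were well above the other samples of their groups, and both *osmads58* CRISPR samples were below all 7. It fell 8.03-fold in *osmads58* CRISPR (log2 fold change −3.01, SE 0.78, adjusted p = 0.0487). This call was lost without any 1 of 8 samples, with adjusted p from 0.0571 to 0.33, and was kept only without *osmads58* dSpm 1. The difference from *osmads58* dSpm (log2 fold change −2.67, SE 0.75) had an adjusted p of 0.0641 and was called under 5 of 20 alternatives. These were DESeq2 (adjusted p = 0.000569), the replicate block, leaving out wild type 1 (0.0291), and only *osmads58* dSpm 1 and 2 (0.0465). The last was leaving out wild type 1 and *osmads58* dSpm 1 together (−2.09, adjusted p = 0.0057).

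LOC_Os05g11140, 274 units away with a lower identifier, was called only between the lines. It had 83.6, 80.8 and 74.4 CPM in the wild type, 109, 75.8, 93.1 and 99.6 CPM in *osmads58* dSpm, and 45.6 and 43.3 CPM in *osmads58* CRISPR. Both *osmads58* CRISPR samples were below all others, and the other groups overlapped. Its level in *osmads58* CRISPR was 2.12-fold below that in *osmads58* dSpm (log2 fold change −1.09, SE 0.18, adjusted p = 0.0086). Against the wild type the log2 fold change was −0.84 (SE 0.18, adjusted p = 0.0282), under the fold change threshold. The call between the lines was lost without *osmads58* CRISPR 1 (adjusted p = 0.116) or 2 (0.155).

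The identifiers next to OsMADS58 were examined on each side. The 5 nearest neighbour genes with lower identifiers and the 5 nearest with higher ones were taken. Of these, only LOC_Os05g11260 and LOC_Os05g11140, described above, were called in any comparison by edgeR in the fit of all samples. LOC_Os05g11428, the nearest of all at 14 units, had 6.78, 8.70 and 6.57 CPM in the wild type, 11.6, 17.8, 10.6 and 13.6 CPM in *osmads58* dSpm, and 12.2 and 11.3 CPM in *osmads58* CRISPR. All 6 mutant samples were above all 3 wild-type samples. Its log2 fold change was 0.87 (SE 0.23, adjusted p = 0.0993) in *osmads58* dSpm and 0.68 (SE 0.26, adjusted p = 0.146) in *osmads58* CRISPR, so neither passed the test.

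LOC_Os05g11380, 34 units away on the other side, had 1.51, 1.47 and 0.675 CPM in the wild type, 1.24, 0.872, 2.54 and 3.20 CPM in *osmads58* dSpm, and 0.202 and 0.584 CPM in *osmads58* CRISPR. The *osmads58* CRISPR samples were the lowest, and the other groups overlapped. The log2 fold change was −1.62 (SE 0.74, adjusted p = 0.207) in *osmads58* CRISPR against the wild type and 0.69 (SE 0.59, adjusted p = 0.623) in *osmads58* dSpm. For *osmads58* CRISPR against *osmads58* dSpm it was −2.31 (adjusted p = 0.0975). That difference was called by DESeq2 (−2.29, adjusted p = 0.00966) and with only *osmads58* dSpm 4b and 5b (−2.83, adjusted p = 0.03).

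LOC_Os05g11470, 56 units away, was at 0 in all 3 wild-type samples. It had 18, 4, 17 and 13 counts in *osmads58* dSpm and 17 and 5 counts in *osmads58* CRISPR. It thus met the count rule through mutant samples alone. Taking 3 counts in each wild-type library as the limit that a count of 0 allows, its mean CPM was at least 4.28-fold higher in *osmads58* dSpm and at least 3.57-fold higher in *osmads58* CRISPR than in the wild type. The adjusted p-values were 0.114 and 0.0711, so neither passed the test, while DESeq2 called both (adjusted p = 0.00632 and 0.0129). These limits cover counting error only. Because small counts were often multiples of 4, a value of 4 or 5 may stand for a single read pair. A limit of 3 counts may then be too low, and both folds may be smaller.

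Next, LOC_Os05g11510 (96 units away) had 0.878, 1.18 and 0.459 CPM in the wild type, 1.3, 1.10, 2.01 and 2.58 CPM in *osmads58* dSpm, and 1.90 and 2.51 CPM in *osmads58* CRISPR. The *osmads58* CRISPR samples were above the wild type, and *osmads58* dSpm overlapped both. The log2 fold changes of 1.06 (SE 0.46, adjusted p = 0.292) in *osmads58* dSpm and 1.39 (SE 0.53, adjusted p = 0.139) in *osmads58* CRISPR did not pass. LOC_Os05g11160 (254 units away) had 2.22, 1.75 and 2.46 CPM in the wild type, 4.93, 7.31, 3.92 and 4.21 CPM in *osmads58* dSpm, and 2.45 and 2.58 CPM in *osmads58* CRISPR. All *osmads58* dSpm samples were above the others. Its log2 fold change in *osmads58* dSpm was 1.25 (SE 0.30, adjusted p = 0.0776). DESeq2 called it there (adjusted p = 0.00238) and between the lines (0.0286).

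The remaining 3 of the 10 nearest genes had overlapping groups in every comparison. LOC_Os05g11550 ranged from 45.5 to 80.4 CPM over all samples, LOC_Os05g11210 from 0.0637 to 0.591 CPM and LOC_Os05g11540 from 0 to 0.431 CPM. The depth of the last 2 does not allow a small difference to be detected.

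Another 3 neighbour genes had 0 counts in both *osmads58* CRISPR samples. A gene with counts in *osmads58* CRISPR alone could not meet the count rule, so the reverse pattern could not appear. LOC_Os05g10310 had 58, 13 and 25 counts in the wild type and 17, 12, 0 and 8 counts in *osmads58* dSpm. With 3 counts as the limit in each *osmads58* CRISPR library, the wild-type mean was at least 11.6-fold higher in CPM (adjusted p = 0.0864). As above, a limit of 3 counts may be too low, so this fold and the 9.64-fold below may be smaller. LOC_Os05g10550 was at 0 in 2 of the 3 wild-type samples and had counts in all 4 *osmads58* dSpm samples, whose mean was at least 9.64-fold above the limit in *osmads58* CRISPR (adjusted p = 0.154). LOC_Os05g09540 was at 0 in 2 wild-type samples and 1 *osmads58* dSpm sample as well, and its highest level was 0.336 CPM. None of the 3 was called by edgeR in the fit of all samples. DESeq2 called LOC_Os05g10310 in *osmads58* CRISPR (adjusted p = 0.00377) and between the lines (0.0333), and LOC_Os05g10550 between the lines (0.0221). With only the 2 groups compared, edgeR also called LOC_Os05g10310 in *osmads58* CRISPR (0.046).

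LOC_Os05g10670, the neighbour gene with the highest mean level, had 874, 947 and 930 CPM in the wild type, 877, 818, 534 and 574 CPM in *osmads58* dSpm, and 651 and 570 CPM in *osmads58* CRISPR. Both *osmads58* CRISPR samples were below the wild type, and *osmads58* dSpm was split, with 4b and 5b low and 1 and 2 near the wild type. Its log2 fold changes of −0.59 (SE 0.23, adjusted p = 0.147) in *osmads58* CRISPR and −0.39 (SE 0.19, adjusted p = 0.339) in *osmads58* dSpm did not pass.

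**Figure D3:**
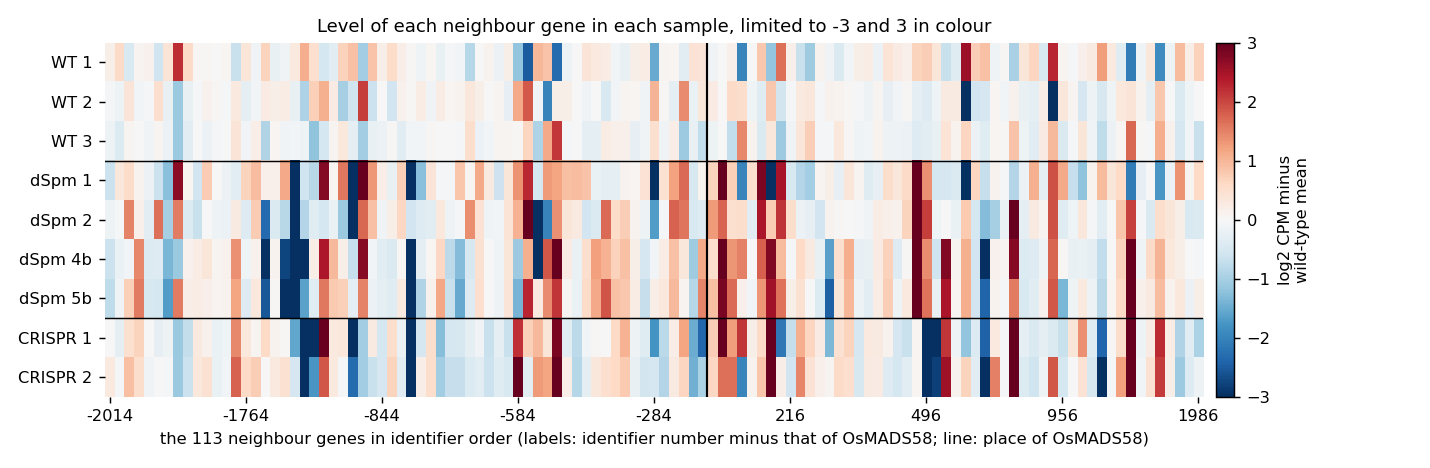
Level of each of the 113 neighbour genes (columns, in identifier order, the vertical line at the place of OsMADS58) in each of the 9 samples (rows, grouped by horizontal lines), as log2 CPM minus the wild-type mean. The colours stop at −3 and 3. Most columns are pale, and the dark columns at 486 to 536 units are LOC_Os05g11900, LOC_Os05g11910 and LOC_Os05g11950.

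The changes were then set out by distance. Within 500 identifier units of OsMADS58 there were 39 neighbour genes, of which 2 were called in *osmads58* dSpm, 2 in *osmads58* CRISPR and 3 between the lines. At over 500 to 1000 units, the 38 genes held 0, 3 and 1 calls in the same order. At over 1000 to 1500 units, the 11 genes held 1 call in each comparison, and at over 1500 units the 25 genes held 1, 0 and 1. With counts this small, no order by distance can be read from the calls.

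The signed changes differed more between distances than the calls did. In *osmads58* dSpm, 29 of the 39 nearest genes (74.4%) had a log2 fold change above 0, where 55.0% of all genes tested and 54.5% of the other chromosome 5 genes did. Their median log2 fold change was 0.41, beside 0.04 for the other chromosome 5 genes. At over 500 to 1000, over 1000 to 1500 and over 1500 units the medians were −0.01, −0.11 and 0.00. Of the 39 nearest genes, 11 (28.2%) had an unadjusted p under 0.05 in *osmads58* dSpm, 10 of them higher and 1 lower, against the background of 16.6% given above. Only LOC_Os05g11900 and LOC_Os05g11910 among these 11 were called.

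The median of the nearest genes lay above the wild type in each *osmads58* dSpm sample, with 64.1% to 76.9% of the 39 genes above the wild-type mean in a sample. The median deviation from the wild-type mean, in log2 CPM, was 0.33, 0.22, 0.51 and 0.37 in *osmads58* dSpm 1, 2, 4b and 5b, and 0.11 and 0.19 in *osmads58* CRISPR 1 and 2. The wild-type samples themselves lay at 0.07, 0.00 and −0.08, and the medians of the other chromosome 5 genes were between −0.01 and 0.08 in all 9 samples. On the side of lower identifiers 13 of 16 of the nearest genes had a log2 fold change above 0 in *osmads58* dSpm (median 0.47), and on the side of higher identifiers 16 of 23 (median 0.15). With only *osmads58* dSpm 1 and 2 in the fit, the median of the 39 genes was 0.16, and with only 4b and 5b it was 0.42. These values describe the genes and carry no test, since neighbouring genes are not independent and the distance classes were chosen with results of these data known.

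In *osmads58* CRISPR the nearest genes were divided evenly. Of the 39, 21 (53.8%) had a log2 fold change above 0 against the wild type, beside 50.3% of all genes, with a median of 0.18. Unadjusted p-values under 0.05 were found in 12 (30.8%, against 25.7% of all genes), of which 6 were higher and 6 lower. At over 500 to 1000 units, 10 of 38 genes (26.3%) were above 0, with a median of −0.30. The medians at over 1000 to 1500 and over 1500 units were −0.13 and 0.19. Between the lines, the median was −0.33 within 500 units and −0.40 at over 500 to 1000 units, beside −0.02 for the other chromosome 5 genes. Unadjusted p-values under 0.05 between the lines were found in 15 of the nearest 39 genes (38.5%, against 23.7% of all genes), 12 of them lower in *osmads58* CRISPR. Over all genes, 3918 of 6456 with such a p were lower.

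**Figure D4:**
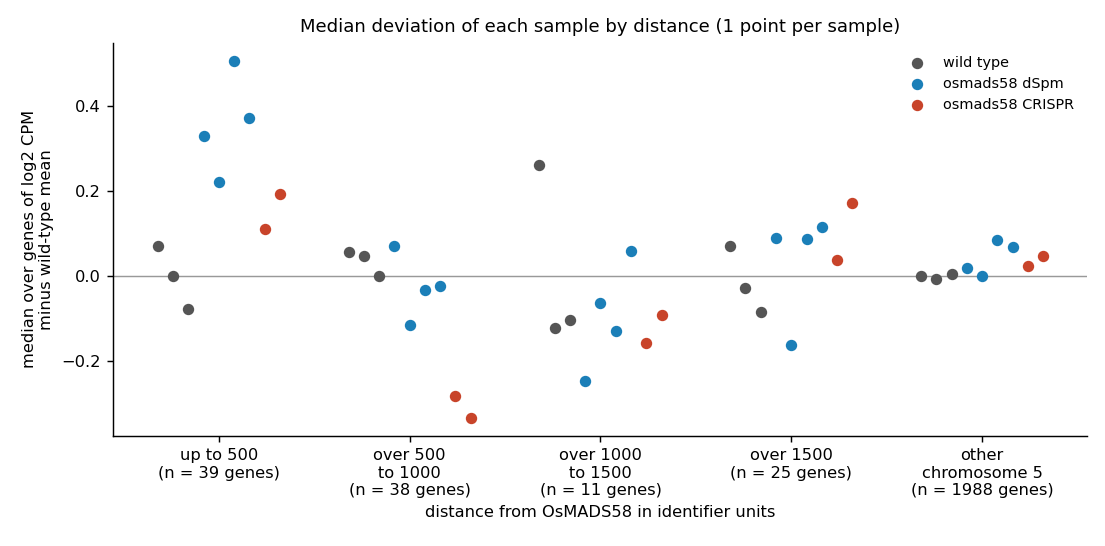
Median over the genes of each distance class of log2 CPM minus the wild-type mean (y axis), with 1 point per sample, by distance from OsMADS58 in identifier units and for the other chromosome 5 genes (x axis). In the nearest class the *osmads58* dSpm samples lie between 0.22 and 0.51, above the wild-type samples (−0.08 to 0.07), while the other chromosome 5 genes stay between −0.01 and 0.08.

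Over all 113 neighbour genes the median log2 fold change was 0.10 in *osmads58* dSpm, −0.09 in *osmads58* CRISPR and −0.20 between the lines, beside 0.04, 0.00 and −0.02 for the other chromosome 5 genes. Leaving out wild type 1 moved the *osmads58* CRISPR median to 0.09, and upper-quartile scaling of all samples moved it to 0.037. Its sign therefore depended on that sample and on the scaling. Between the lines the median was −0.07 with only *osmads58* dSpm 4b and 5b. Setting the genes that were at 0 in a whole group to their limits moved none of these medians. It could not, since each such gene stayed on its side of the median. The median absolute log2 fold change of the neighbour genes was 0.41, 0.53 and 0.61 in the 3 comparisons, and that of the other chromosome 5 genes was 0.34, 0.55 and 0.46. The summed level of the neighbour genes was 4055 to 4442 CPM in the wild type, 3786 to 4546 CPM in *osmads58* dSpm and 3410 to 3452 CPM in *osmads58* CRISPR.

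Chromosome 5 was also divided into 14 consecutive windows of 4000 identifier units, with 32 or more tested genes each. The window around OsMADS58 held 112 of the neighbour genes. In *osmads58* dSpm its share of called genes was 3.57%, where the windows ranged from 0% to 3.72%. In *osmads58* CRISPR it was 5.36% (range 2.15% to 8.79%), and between the lines 5.36% (range 0% to 8.07%). In each comparison at least 1 window elsewhere on the chromosome had a higher share.

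According to the methods the samples of each group are biological replicates from separate lines, which the labels do not state, and the p-values measure the spread between them. The 2 samples of *osmads58* CRISPR limit the comparisons with that line, whose spread was estimated together with that of the other groups.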

How the data were processed

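The authors aligned the reads with HISAT2 2.1.0 to MSU v7.0 and, per the submitters' processing notes, used StringTie 1.3.3b. The authors deposited an estimated count per gene as a whole number, so rounding changed 0 values. How coverage became counts is not given in the sources used here. Among counts from 1 to 40, 37.2% to 40.7% per sample were multiples of 4, where an even spread gives 25%, so counting limits may be too narrow.

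The tests were run with edgeR 4.0.16 in R 4.3.3 (filterByExpr, TMM, glmQLFit, glmQLFTest), in 1 fit of all 9 samples in 3 groups. Of 56143 genes, 33682 had a count and 27251 were tested. Standard errors were obtained by dividing the log2 fold change by the root of F. Log2 CPM used a prior count of 2. Counts per sample summed to 65192657 to 83042245, and a count of 0 was taken to allow 3 counts. Over all 9 samples the counts sum to more than the reads the study states, so a count is not a single read.

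Genes named are OsMADS58, every neighbour gene called in any comparison, the 5 nearest on each side, those with 0 counts in a whole group and a mean of at least 10 counts in another, and the one with the highest mean CPM. The members, the distance classes and the lists were chosen with earlier results of these data known. Alternatives were DESeq2 1.42.0, other scaling and filters, a fit of only the 2 groups compared, a block for the replicate number, each sample left out, each pair of *osmads58* dSpm samples and other call rules. Counts divided by 4, and leaving out wild type 1 and *osmads58* dSpm 1 together, were added after seeing the data. The procedure was tested on simulated data. Changes were planted there only in genes with higher counts, and no samples deviated together. It therefore says nothing about genes with low counts or about such deviations.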

Additional observations from a re-analysis of the deposited data

Results flagged for a closer look

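In LOC_Os05g10620, *osmads58* dSpm 2 stood far from the other 3 samples of its group, at 11.56 CPM. Its gap to the nearest sample was 0.902 of the range of the group. In LOC_Os05g12481, *osmads58* dSpm 1 stood apart at 60.26 CPM, with a gap of 0.835 of the range. Of the 23 named genes checked in this way, these 2 passed Dixon's 95% critical value, which chance passes in about 5% of groups.

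LOC_Os05g11910 differed between the lines in the test of the difference itself, by −5.84 on the log2 scale for *osmads58* CRISPR against *osmads58* dSpm (adjusted p = 0.000738, quasi-likelihood test of edgeR, Benjamini-Hochberg). All 4 *osmads58* dSpm samples were above and both *osmads58* CRISPR samples below the wild type.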

How the results depend on the processing

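In *osmads58* dSpm against the wild type, the 4 calls became 7 with DESeq2, 1 with the replicate block, 2 with only dSpm 1 and 2, 17 with only dSpm 4b and 5b, 2 at an adjusted p under 0.01, 2 within 1000 identifier units, and 2 to 5 with 1 sample left out. In *osmads58* CRISPR, the 6 calls became 10 with DESeq2, 10 with only the 2 groups compared, 11 with the replicate block, 13 with only dSpm 4b and 5b, 2 at an adjusted p under 0.01, and 2 to 10 with 1 sample left out. Between the lines, the 6 calls became 15 with DESeq2, 15 with the replicate block, 11 with only dSpm 1 and 2, 10 with only dSpm 4b and 5b, 11 without wild type 1 and dSpm 1 together, and 3 to 8 with 1 sample left out. Calls over all genes tested also moved with the setting. For *osmads58* dSpm, 394 of 27251 became 1340 of 33682 with DESeq2 and 152 of 27251 with the block. The number was 110 of 26506 with only dSpm 1 and 2, and 2491 of 26836 with only 4b and 5b. For *osmads58* CRISPR, 1512 of 27251 became 3203 of 33682 with DESeq2 and 3469 of 26836 with only dSpm 4b and 5b. Between the lines, 1462 of 27251 became 2840 of 33682 with DESeq2 and 2850 of 27251 with the block. The cause was not tested.

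DESeq2 called OsMADS58 in *osmads58* dSpm (−1.70) and between the lines (−2.13). Between the lines it was also called with only dSpm 4b and 5b (−2.32) and without wild type 1 and dSpm 1 together (−2.01). Leaving out wild type 1 (−2.15) or dSpm 2 (−2.36) alone gave this call too. With 1 sample left out, OsMADS58 ranged from −4.25 to −3.29 in *osmads58* CRISPR and from −2.57 to −1.77 between the lines.

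The shared replicate numbers were not taken as pairs, since the labels give no shared origin. Wild type 1 and *osmads58* dSpm 1 deviated together (correlation 0.31). Wild type 2 and *osmads58* dSpm 2 had a correlation of 0.13, and so did the differently numbered wild type 3 and *osmads58* dSpm 2. Same-numbered samples did not deviate together with *osmads58* CRISPR (−0.02 to 0.01 for number 1, −0.06 to −0.02 for number 2). With the replicate block, the median of the 39 nearest genes in *osmads58* dSpm was 0.15, and the calls of LOC_Os05g09520, LOC_Os05g10210 and LOC_Os05g11910 in *osmads58* dSpm (adjusted p = 0.208, 0.0728 and 0.185) and of LOC_Os05g09520 between the lines (0.0793) were not made.

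Over 69 gene results and 20 alternatives, 32 values changed sign, all in comparisons that were not called. In *osmads58* CRISPR against the wild type, LOC_Os05g11900 was 0.084 with upper-quartile scaling and 0.39 without wild type 1 and dSpm 1, where LOC_Os05g09520 was 0.11. In *osmads58* dSpm, only dSpm 1 and 2 gave −0.23 for LOC_Os05g11380 and 0.14 for LOC_Os05g12481. There, only dSpm 4b and 5b gave −0.17 for LOC_Os05g09540, −0.23 for LOC_Os05g11210, 0.45 for LOC_Os05g11540 and −0.075 for LOC_Os05g11550, the block gave −0.47 for LOC_Os05g11380 and 0.0017 for LOC_Os05g11540, and LOC_Os05g11550 was −0.13 without wild type 1 and dSpm 1. Between the lines, only dSpm 4b and 5b gave 0.16 for LOC_Os05g10670, 0.79 for LOC_Os05g11210 and −0.035 for LOC_Os05g11510, and LOC_Os05g11210 was 0.10 without wild type 1 and dSpm 1.

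With 1 sample left out, the range in *osmads58* CRISPR was −0.22 to 0.11 for LOC_Os05g09520, −0.21 to 0.39 for LOC_Os05g11900 and −6.31 to 1.80 for LOC_Os05g11540. In *osmads58* dSpm it was −0.87 to 0.96 for LOC_Os05g11540, −0.13 to 0.13 for LOC_Os05g11550 and −0.92 to 0.57 for LOC_Os05g12481. Between the lines it was −0.47 to 0.11 for LOC_Os05g11210, −0.25 to 0.0097 for LOC_Os05g11428, −1.54 to 0.46 for LOC_Os05g11470 and −6.20 to 1.87 for LOC_Os05g11540.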

Other observations

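Of the 6 tested identifiers of the window that were under the count rule, 5 had most of their counts in *osmads58* dSpm 4b and 5b. LOC_Os05g13380 had 91 and 106 counts in these 2 samples and 0 in the other 7. LOC_Os05g10640 had 26 and 12 counts there and 0 in the other 7, and LOC_Os05g09680 had 11 and 11 there, 4 in wild type 1 and 0 elsewhere. LOC_Os05g11100 had 12 and 14 counts there, 4 in each wild-type sample and 0 elsewhere. LOC_Os05g12808 had 19 and 4 counts in 4b and 5b, 9 in *osmads58* dSpm 2, 4 and 9 in *osmads58* CRISPR and 0 in the wild type. Among the 6, LOC_Os05g09660 had its highest count, 21, in *osmads58* CRISPR 1. These genes were named after their values were seen, and no test was made between samples of 1 group.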
